A study of Mus musculus with 36 samples.

Results

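Transcripts of 10 genes of the endoplasmic reticulum (ER) stress response were followed through B cell development and after changes in SIRT7 and Pax5. They were Atf6, Ern1, Eif2ak3, Atf4, Ddit3, Atf3, Trib3, Chac1, Hspa5 and Herpud1, chosen by name because the deacetylase SIRT7 is known to limit ER stress. All 10 were present among the 50712 distinct gene symbols of the 3 RNA-seq tables, and all 10 passed the filter on low values in each table. The series holds 24 RNA-seq libraries, 2 in each of 12 groups, and 6 lists of Pax5 ChIP-seq peaks.

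In the first table, pro-B cells (CD43+) and pre-B cells (CD43-), both within a B220+ IgM- gate, were sorted from bone marrow of 2 wild-type and 2 Sirt7-/- mice on a 129Sv background, with 1 library per mouse and stage. The Sirt7-/- mice carry a germline deletion, so every cell type of the animal lacks SIRT7. The second table holds Pax5-/- progenitors from fetal liver of C57BL/6 mice, cells arrested before B cell commitment, which were grown on OP9 stroma with cytokines, transduced with a retrovirus and sorted for the human CD4 reporter. They received empty vector (EV), wild-type Pax5 (Pax5-WT), Pax5 with K198Q, which mimics acetylated lysine, or Pax5 with K198R, which mimics the deacetylated form. The third table holds cultured bone marrow pro-B cells that kept their own Pax5. Wild-type cells received EV, and Sirt7-/- cells received EV, Pax5-WT or K198R. Peaks come from Pax5-/- cells with Pax5-WT, K198Q or K198R, 2 lists each.

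When unfolded proteins build up in the ER, sensors in its membrane start the unfolded protein response. ATF6 moves to the Golgi, is cut and becomes a transcription factor, IRE1α (encoded by Ern1) splices the mRNA of Xbp1, and PERK (encoded by Eif2ak3) phosphorylates eIF2α, which lowers general translation and favours that of ATF4. ATF4 and its partners CHOP (Ddit3) and ATF3 make up the transcriptional side of the integrated stress response (ISR), with the pseudokinase gene Trib3 and the glutathione-degrading enzyme gene Chac1 among their targets. Hspa5 encodes BiP, the main chaperone of the ER lumen, and Herpud1 a membrane protein of ER-associated degradation. In the B lineage the IRE1α and XBP1 branch is best known from plasma cells. Splicing of Xbp1, cleavage of ATF6 and phosphorylation do not change the amount of a transcript as such and were not measured here.

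The promoters of these genes carry short sequences through which the response is known to act. They are shown for targets of the ISR and for the ER products Hspa5 and Herpud1. Of the 10 genes, 9 had an entry among the RefSeq promoters (GRCm38.p6, 250 bases before to 50 after the start), and Atf6 had none. The ER stress response element ERSE (CCAAT, 9 bases, CCACG) was found in the promoter of Hspa5, with its first base at -65 relative to the start, and in 0.119% of the 32817 promoters of the same length. ERSE-II (ATTGG, 1 base, CCACG) was found in Herpud1, with its first base at -52, and in 0.0366% of all promoters. The ISR element CARE (TGATGNAA) was found on the reverse strand in Atf3, Trib3, Chac1 and Herpud1, and in 3.97% of all promoters. TGACGTGG, a core of the element UPRE, was found in none of the 9 and in 0.677% of all promoters. Both strands were searched. A match is a description of these letters and not evidence of use. The 250 bases before the start are given 5′ to 3′ in the direction of transcription, with the matches in capitals. Hspa5 lies on the forward strand (chr2:34771840-34772089), as do Herpud1 (chr8:94386179-94386428) and Chac1 (chr2:119350992-119351241), and Atf3 lies on the reverse strand (chr1:191183334-191183583).
Hspa5: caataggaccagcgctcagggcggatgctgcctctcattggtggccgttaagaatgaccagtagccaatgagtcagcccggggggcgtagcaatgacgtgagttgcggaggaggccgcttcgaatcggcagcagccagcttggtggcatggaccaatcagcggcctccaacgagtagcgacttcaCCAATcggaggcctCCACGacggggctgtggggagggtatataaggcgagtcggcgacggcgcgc
Herpud1: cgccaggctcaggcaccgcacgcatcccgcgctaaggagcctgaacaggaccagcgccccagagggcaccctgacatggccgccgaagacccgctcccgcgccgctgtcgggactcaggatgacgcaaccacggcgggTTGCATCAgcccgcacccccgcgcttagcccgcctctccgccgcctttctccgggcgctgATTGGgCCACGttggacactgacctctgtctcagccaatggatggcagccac
Chac1: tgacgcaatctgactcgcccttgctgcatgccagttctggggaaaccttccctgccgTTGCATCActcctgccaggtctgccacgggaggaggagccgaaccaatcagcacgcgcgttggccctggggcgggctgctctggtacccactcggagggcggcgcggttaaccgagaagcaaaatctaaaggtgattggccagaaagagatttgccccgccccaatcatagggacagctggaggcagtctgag
Atf3: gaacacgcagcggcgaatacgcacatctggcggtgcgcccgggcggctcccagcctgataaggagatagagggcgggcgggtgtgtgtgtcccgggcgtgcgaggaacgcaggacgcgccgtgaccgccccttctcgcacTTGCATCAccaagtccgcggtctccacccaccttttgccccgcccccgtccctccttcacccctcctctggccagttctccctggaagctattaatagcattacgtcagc
In Trib3 (reverse strand, chr2:152344028-152344057) the match begins 15 bases after the start, and 30 bases around it are given.
Trib3: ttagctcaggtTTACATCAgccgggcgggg
The Hspa5 match holds CCAAT and CCACG with 9 bases between them. In Herpud1 the ERSE-II match lies closer to the start than the CARE match, whose first base is at -112.

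The labels were checked first. Labels for source and cell type of the 8 sorted libraries disagree with their titles. Groups follow the titles, which match the descriptions. The pro-B genes Igll1 and Dntt bear the titles out: Igll1 was between 22752 and 29529 normalised counts in the 4 pro-B libraries and between 494 and 4122 in the 4 pre-B libraries. Sirt7 was at 2692 and 2533 normalised counts in wild-type pro-B cells and at 363 and 366 in Sirt7-/- pro-B cells. In pre-B cells Sirt7 was at 5613 and 5219 in the wild type and at 1066 and 821 in Sirt7-/-. In culture it was at 1324 and 905 in wild-type cells and between 325 and 407 in the 6 Sirt7-/- libraries. Pax5 in Pax5-/- cells was at 2201 and 2103 with EV, 6458 and 6152 with Pax5-WT, 8918 and 8963 with K198Q and 21162 and 16610 with K198R. The form of Pax5 and its amount therefore cannot be told apart in these cells.

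Both libraries of the second Sirt7-/- mouse stood apart. The summed level of 8 genes that respond to cell handling (Fos, Jun, Junb, Egr1, Ier2, Dusp1, Hspa1a, Hspa1b) was 103438 normalised counts in its pro-B and 88520.5 in its pre-B library, against 9319 to 27479 in the other 6. Fos was at 15803 and 16061 in these libraries, and at most 2568 in the others. Haemoglobin Hba-a1 was at 19328 and 22303, against 2365 to 5263, and its pre-B library held the most Igll1 (4122) and Dntt (3838) of the 4 pre-B libraries. Ppp1r15a, the phosphatase subunit that reverses eIF2α phosphorylation and a target of the ISR, was at 5081 and 4853 against 399 to 1170. Where sorted Sirt7-/- cells are compared between stages or with the wild type, counts of limma calls are given with and without this mouse.

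Levels per length differed widely among the 10 genes. In sorted cells the mean normalised count per kb of exon was highest for Herpud1 (7675) and Atf4 (6067), followed by Hspa5 (1977), Eif2ak3 (1193), Atf6 (661), Ddit3 (429) and Ern1 (237). Trib3 (53.4), Chac1 (6.98) and Atf3 (3.23) were lowest. In this order the range over the 8 libraries overlapped that of the next gene except from Atf4 to Hspa5 and from Ern1 to Trib3. In the cultured cells Hspa5 led, with 4435 normalised counts per kb in Pax5-/- cells, ahead of Atf4 (2082), Herpud1 (1093) and Ern1 (532). There the range of Ern1 overlapped those of Herpud1 and Atf6. With K198R alone Ern1 (293) lay below Atf6 (378) and Eif2ak3 (335). In wild-type and Sirt7-/- cultures Hspa5 (2995) and Atf4 (2928) overlapped, and Herpud1 (1288) came next. The tables were normalised separately, so that levels are compared only within a table.

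The 2 stages differed in more of these genes than any other pair of groups compared here, by limma's calls. From wild-type pro-B to pre-B cells, the sensors Atf6, Ern1 and Eif2ak3, the factor Atf4 and Herpud1 rose, and the ISR targets Trib3 and Chac1 fell, 7 of 10 genes called by limma at an adjusted p under 0.05. Of all 17649 genes tested, 40.2% were called in this comparison, 18.1% higher and 22.0% lower in pre-B cells. The median log2 fold change of the 10 genes was 0.64, and that of all genes -0.04. In Sirt7-/- cells 6 of 10 were called in the same directions, all but Atf4, against 35.7% of all genes. Without the second Sirt7-/- mouse 4 of them were called (Atf6, Ern1, Eif2ak3 and Herpud1), against 20.5% of all genes.

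Each sensor transcript was higher in every pre-B than in every pro-B library. Ern1 was at 1448 and 1424 normalised counts in wild-type pro-B cells and at 2829 and 2950 in pre-B cells. The log2 fold change was 1.01 ± 0.17 (SE, adjusted p = 0.0034), a 2.01-fold rise. In Sirt7-/- cells Ern1 went from 1351 and 1096 to 2498 and 1872, and the groups did not overlap (log2 fold change 0.83 ± 0.17, adjusted p = 0.0093, and 0.057 without pro-B replicate 2). Eif2ak3 was at 5200 and 5570 in wild-type pro-B cells and at 9783 and 10051 in pre-B cells, an increase by 0.88 ± 0.08 on the log2 scale (adjusted p = 0.00039). The 2 groups were tight and well apart. Eif2ak3 in Sirt7-/- cells was at 5253 and 5551 in pro-B and at 8188 and 7926 in pre-B cells, an increase by 0.58 ± 0.08 (adjusted p = 0.0024). Atf6 was at 4390 and 5081 in wild-type pro-B and at 7748 and 8145 in pre-B cells (0.75 ± 0.10, adjusted p = 0.0012), with a similar step in Sirt7-/- cells, from 4556 and 4374 to 7240.3 and 7262 (0.70 ± 0.10, adjusted p = 0.0022).

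Among the factors of the ISR, Atf4 took a small step and Ddit3 a larger one. Atf4 was at 12305 and 12971 in wild-type pro-B cells and at 15056 and 15009 in pre-B cells, a rise of 0.25 ± 0.07 (adjusted p = 0.029). This call was lost whenever a library of either group was left out. Atf4 in Sirt7-/- cells was at 13720 and 14404 in pro-B and at 15579 and 15409 in pre-B cells, and this difference of 0.14 was not called (adjusted p = 0.17). Ddit3 was at 507 and 691 in wild-type pro-B and at 828 and 923 in pre-B cells. Its log2 difference of 0.56 was not called (adjusted p = 0.12), but was called with the mouse as a block (adjusted p = 0.046), since each mouse gave both stages. With that block 8 of the 10 genes were called in wild-type cells, against 43.1% of all genes. Ddit3 in Sirt7-/- cells was at 469 and 740 in pro-B and at 795 and 924 in pre-B cells (0.54, adjusted p = 0.14). Atf3 lay between 0 and 15.7 normalised counts in all 8 sorted libraries, too low for a fold change.

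Trib3 and Chac1, which lie downstream of ATF4 and CHOP, went the other way. Trib3 was at 158 and 188 normalised counts in wild-type pro-B cells and at 70.1 and 16.4 in pre-B cells, a decrease by 2.30 ± 0.68 on the log2 scale (adjusted p = 0.033). In Sirt7-/- cells it was at 194 and 189 in pro-B and at 27.7 and 63.2 in pre-B cells (-2.17 ± 0.68, adjusted p = 0.044). The pre-B libraries of Trib3 varied several-fold but all lay below the pro-B libraries. The wild-type call for Trib3 was lost with edgeR (adjusted p = 0.052) and without pro-B replicate 1 (0.0998), pro-B replicate 2 (0.13) or pre-B replicate 2 (0.12), and the Sirt7-/- call with edgeR (0.051) and without either pro-B library (0.14 each) or pre-B replicate 1 (0.20). Chac1 was at 37.4 and 16.8 in wild-type pro-B cells and at 3.14 and 0 in pre-B cells (adjusted p = 0.017, lost without pro-B replicate 1 at 0.0997 or pre-B replicate 2 at 0.068). In whole reads this was 58 against 3, a ratio of 16.9 after scaling for library size, with a 95% exact interval of 5.5 to 84.3 that covers counting error only. In Sirt7-/- cells 37 reads of Chac1 in pro-B stood against 0 in pre-B libraries, at least 5.36-fold lower with a floor of 3 counts per library (adjusted p = 0.013). Neither Trib3 nor Chac1 was called in Sirt7-/- cells without the second mouse (adjusted p = 0.13 and 0.12), and Chac1 was not called without its pro-B library alone (0.073).

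Of the products of the response in the ER itself, Herpud1 rose and Hspa5 was not called. Herpud1 was at 14930.3 and 14711 in wild-type pro-B cells and at 25465 and 23163 in pre-B cells, a rise of 0.71 ± 0.10 (adjusted p = 0.0016). In Sirt7-/- cells Herpud1 went from 11434 and 12812 to 21596 and 19127 (0.75 ± 0.10, adjusted p = 0.0020). Hspa5 was at 5489 and 12414 in wild-type pro-B cells and at 5173 and 6928 in pre-B cells. The pro-B libraries differed more than 2-fold, the groups overlapped, and the difference of -0.46 was not called (adjusted p = 0.38). Hspa5 in Sirt7-/- cells was at 10843 and 11844 in pro-B and at 5593 and 8585 in pre-B cells (-0.71, adjusted p = 0.19).

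**Figure D1:**
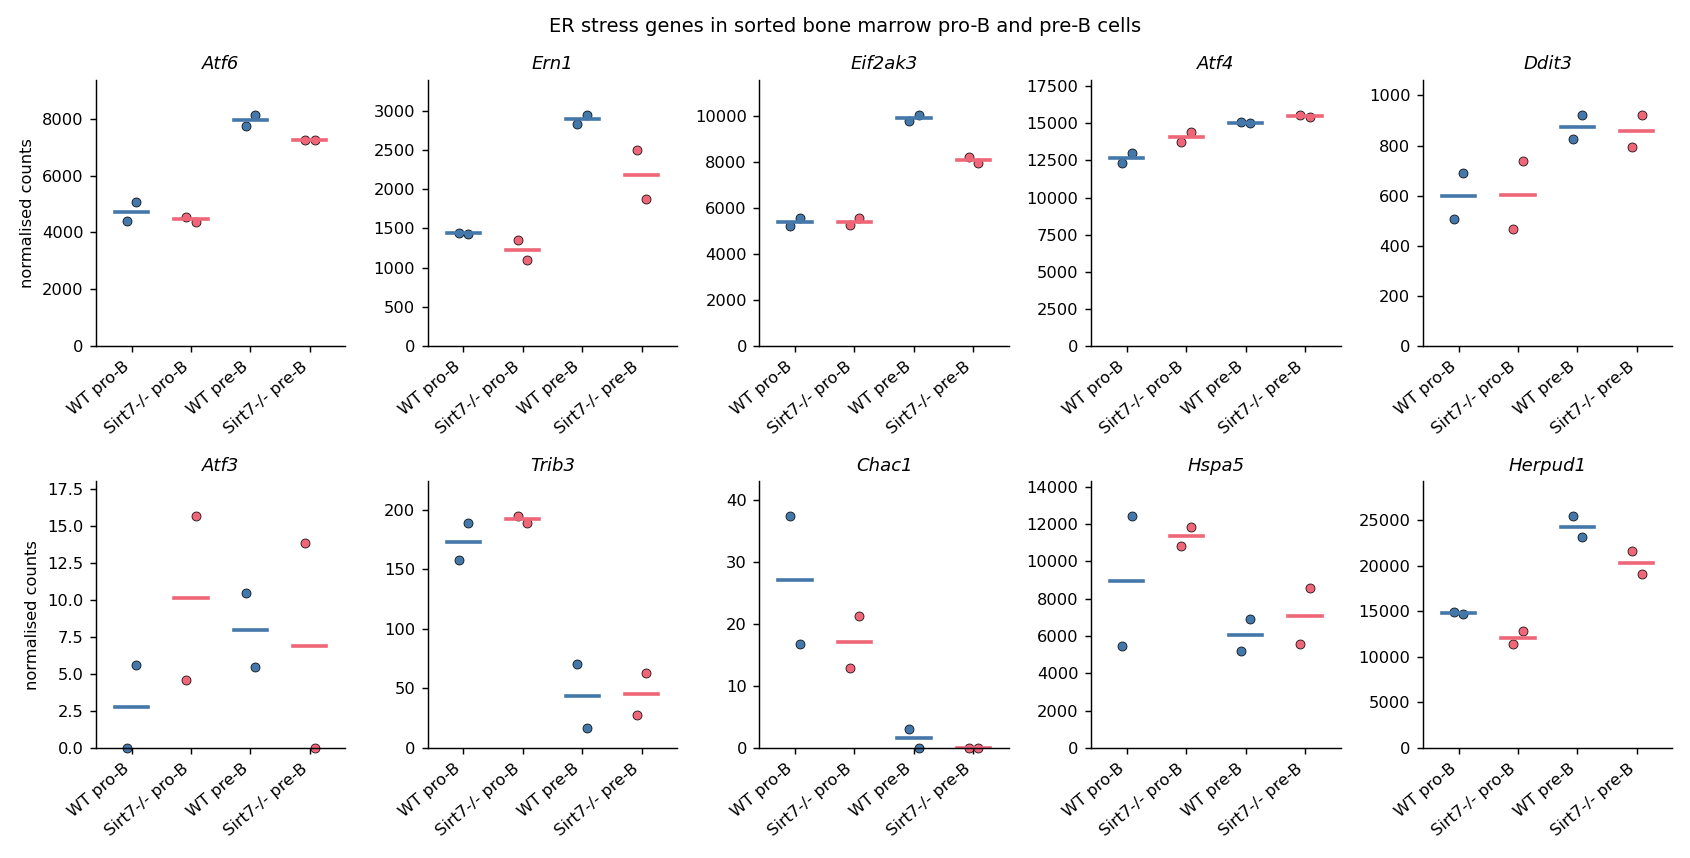
Normalised counts of the 10 genes in the 8 libraries of sorted cells by stage and genotype, 1 panel per gene with its own axis from 0. Dots are libraries and lines are group means (n = 2). Ern1, Eif2ak3, Atf6, Herpud1, Atf4 and Ddit3 lie higher in every pre-B than in every pro-B library, and Trib3 and Chac1 lower.

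Markers of other cells also differed between the stages. Jchain, a plasma cell gene that early B progenitors express too, was at 20005.5 and 57036 in wild-type and 37239 and 35602 in Sirt7-/- pro-B cells, against 881 to 2191 in pre-B cells. The wild-type pro-B library with the highest Jchain also had the highest Hspa5 (12414). The plasma cell receptor gene Tnfrsf17 was between 34.6 and 104 in pro-B libraries and at 0 in 3 of 4 pre-B libraries, with 5.47 in the other. The 7 plasma cell markers summed to between 59285 and 99591 in pro-B and between 48323 and 63070.1 in pre-B libraries, where Irf4 was the most abundant. All 7 were above 0 in each pro-B library. Other genes of this list lay higher in pre-B cells: in the wild type Irf4 was at 22107 and 23073 in pro-B and 34036 and 40383 in pre-B, Sdc1 at 2756 and 2954 against 4770 and 4647, and Tnfrsf13b at 7186 and 8204 against 12958 and 10287. The 8 myeloid markers, all above 0 in each sorted library, summed to between 14505 and 84130 in pro-B and between 11808 and 24039 in pre-B cells, with Ngp the most abundant in pro-B (4974 to 50588) and Itgam in pre-B cells. T and NK cell markers summed to between 1349 and 2055 in pro-B and between 139.7 and 712 in pre-B libraries, and stroma markers to between 507 and 1295 and between 124 and 339. Erythroid markers went from 16303 to 5829 and from 11769 to 8358 in the wild type. They went from 10742 to 8715 in the first Sirt7-/- mouse and up in the second (48229.5 to 72883). From pro-B to pre-B, the sum of the handling genes went up in 3 mice, from 13211 to 26894 and from 9319 to 14983 in the wild type and from 13275 to 27479 in the first Sirt7-/- mouse, and down in the second (103438 to 88520.5). In bulk libraries fewer cells of a type and less RNA per cell cannot be told apart. The part of these cells and of handling in the stage differences was not tested.

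The wider pathway, 64 further genes in 6 groups of which 61 were tested, split in the same comparison. In wild-type cells 12 rose and 22 fell, against 18.1% and 22.0% of all genes. Of 16 ER folding genes 9 fell, 1 rose and 6 were not called, with a median log2 fold change of -0.54. Sdf2l1, a cofactor of BiP, fell by 1.80, from 1327 and 1852 to 384 and 525. The disulphide isomerase gene Pdia6 fell by 0.91 and the lectin chaperone gene Canx by 0.80. Ero1lb, the ER oxidase gene, went against them, from 1019.9 and 1011 to 2133 and 2117 (1.07).

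Of the 18 amino acid and stress targets of the ISR tested, 10 fell, 1 rose and 7 were not called, against 22.0% and 18.1% of all genes, and their median was -1.04. The amino acid transporter gene Slc7a5 went from 6647 and 6379.8 in wild-type pro-B to 1193 and 954 in pre-B cells, a decrease by 2.61. Pck2 fell by 1.68 and Asns, asparagine synthetase, by 1.60. The gene that rose was Sesn2, a stress-induced inhibitor of mTORC1 signalling (0.83). Of the 10 genes of ER-associated degradation tested, 6 rose, 1 fell and 3 were not called, against the same shares. Derl2 (0.71), Vimp (0.42) and the ubiquitin ligase gene Syvn1 (0.40) were among those that rose, and Vcp fell by 0.50. Among the other kinases and phosphatases of eIF2α, Eif2ak1 (HRI) rose by 0.59, whereas Eif2ak2 (PKR) fell by 2.06 and Eif2s1, eIF2α itself, by 0.87. Of the 7 tested ER membrane and cell death regulators, 3 rose, Bbc3 (0.93), Atf6b (0.56) and Mbtps1 (0.50), a protease that cuts ATF6. None of the 4 genes downstream of IRE1α was called, with Xbp1 at 2806 and 4673 in pro-B and 3001 and 3391 in pre-B cells.

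In Sirt7-/- cells the same groups showed 8 genes higher and 19 lower of 61 (16.5% and 19.2% of all genes). Without the second Sirt7-/- mouse they were 3 and 14 (9.38% and 11.2%), the 3 being Ero1lb, Syvn1 and Mbtps1. ER folding genes split into 1 that rose, Ero1lb (1.16), and 7 that fell, and the amino acid and stress targets into 1 and 9, and Slc7a5 fell by 2.12 on the log2 scale. Of the degradation genes 2 rose, among them Syvn1 (0.64), and 1 fell. Eif2ak1 rose by 0.58, and Eif2ak2 fell by 1.69. The interaction of stage and genotype was called for none of the 10 genes and none of the 61 pathway genes with limma (0.00567% of all genes), nor with edgeR (0.00567%) or DESeq2 (0.589%). At an unadjusted p under 0.05 it held 1 of the 10, Eif2ak3 (-0.30, adjusted p = 0.88), and 1 of the 61, against 5.43% of all genes.

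**Figure D2:**
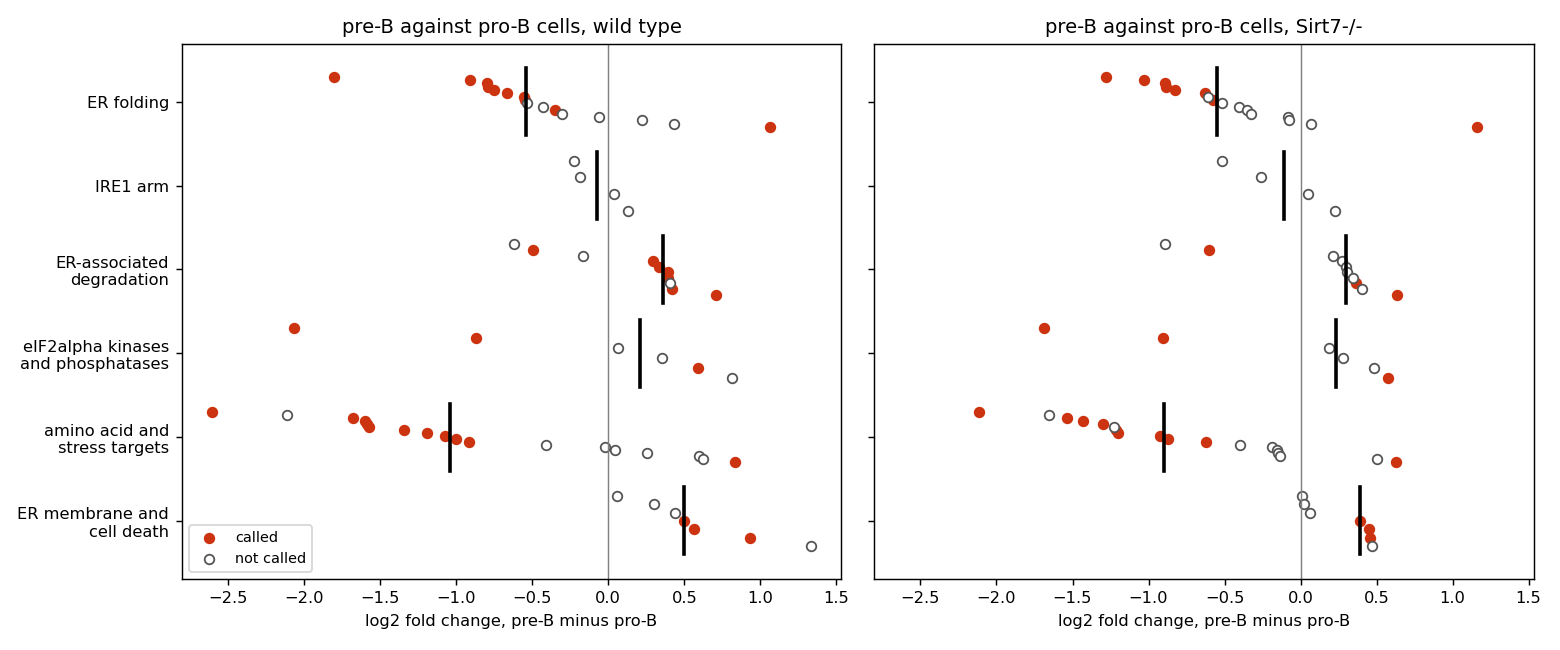
Log2 fold change from pro-B to pre-B cells (x axis) of the pathway genes by role (rows), for wild-type (left) and Sirt7-/- cells (right). Dots are genes, filled where called by limma, and black lines are medians. The amino acid and stress targets (median -1.04 in wild-type cells) and ER folding genes (-0.54) lie mostly left of 0, and ER-associated degradation (0.36) mostly right of it.

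Loss of SIRT7 was compared at each stage and in culture, which bears on whether these genes stand higher without the deacetylase. In sorted cells none of the 10 was called by limma, in pro-B (0.0623% of all genes called) or in pre-B cells (0.085%). At an unadjusted p under 0.05 there was 1 in pro-B (Herpud1) and there were 3 in pre-B cells (Ern1, Eif2ak3 and Herpud1), against 5.94% and 13.6% of all genes. edgeR called none at either stage, and DESeq2 called none in pro-B cells and 1 in pre-B cells, Eif2ak3 (adjusted p = 0.037), against 0.725% and 4.12% of all genes. Without the second Sirt7-/- mouse limma called none of the 10 at either stage. The median log2 difference of the 10 genes was -0.0010 in pro-B cells and -0.19 in pre-B cells, where that of all genes was 0.02. None of the 10 was called higher in Sirt7-/- cells.

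Ern1, Herpud1 and, in pre-B cells, Eif2ak3 and Atf6 lay lower in both Sirt7-/- libraries than in both wild-type ones. Ern1 differed by -0.24 in pro-B (adjusted p = 0.93) and -0.42 in pre-B cells (adjusted p = 0.34), and its pre-B value was lowest in the second Sirt7-/- mouse (1872 against 2498). Herpud1 differed by -0.29 in pro-B (adjusted p = 0.76) and -0.26 in pre-B cells (adjusted p = 0.32). Eif2ak3 differed by -0.30 in pre-B cells (adjusted p = 0.20) and by 0.00 in pro-B cells. Without the second mouse the pre-B differences were -0.21 for Ern1, -0.28 for Eif2ak3 and -0.17 for Herpud1. Groups that did not overlap, with Sirt7-/- lower, were found for 2 of the 10 genes in pro-B and 4 in pre-B cells, against 19.8% and 19.4% of all genes. Sirt7-/- was higher without overlap for 2 genes in pro-B (Atf4 and Trib3) and 1 in pre-B cells (Atf4), against 19.5% and 22.1% of all genes. Atf4 differed by 0.15 in pro-B cells (adjusted p = 0.88). For Ddit3 the difference was -0.01 in pro-B and -0.03 in pre-B cells, within libraries that ranged from 469 to 740 and from 795 to 924. Hspa5, the usual readout of ER stress, differed by 0.46 ± 0.38 in pro-B (adjusted p = 0.94) and 0.21 ± 0.38 in pre-B cells (adjusted p = 0.86), and by 0.39 and -0.10 without the second mouse.

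Markers differed between the genotypes as well. The pro-B genes Igll1, Dntt and Vpreb1 were all higher in both Sirt7-/- pre-B libraries than in both wild-type ones. Igll1 was at 1324 and 4122 against 494 and 926, Dntt at 423 and 3838 against 131 and 157, and Vpreb1 at 982 and 3268 against 288 and 348. The list of pro-B and pre-B markers as a whole was not higher. Its 9 genes, these included, summed to 465229 and 431028 in Sirt7-/- and to 495865 and 445732 in wild-type pre-B cells, and these sums overlapped. The myeloid markers summed to 15260 and 11808 in Sirt7-/- and to 24039 and 20570 in wild-type pre-B cells, and the erythroid markers to 8715 and 72883 against 5829 and 8358. Irf4 was lower without overlap in Sirt7-/- cells at both stages, at 17582 and 18056 against 22107 and 23073 in pro-B and at 28185 and 28776 against 34036 and 40383 in pre-B cells. In pro-B cells the stroma markers summed to 705 and 507 in Sirt7-/- against 1275 and 1295 in the wild type, and the T and NK cell markers to 1949 and 2055 against 1349 and 1474. The part of the stage or of other cells in the genotype differences was not tested.

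In culture limma called none of the 10 genes between genotypes (0.557% of all genes called), and 2 were called with the library pairing as a block. Ern1 was at 2679 and 2157 normalised counts in wild-type cells with EV and at 1368 and 926 in Sirt7-/- cells with EV, a difference of -1.09 ± 0.30. Herpud1 was at 3701 and 5188 in wild-type and at 2108 and 3644 in Sirt7-/- cells (-0.66 ± 0.31). Neither gene's groups overlapped. Groups without overlap and with Sirt7-/- lower were found for these 2 of 10 genes, against 17.2% of all genes. Neither was called by limma (adjusted p = 0.22 and 0.57), with 1, Ern1, at an unadjusted p under 0.05 (9.68%). Same-numbered libraries deviated together in this table, and with the number as a block both were called (adjusted p = 0.028 for Ern1 and 0.020 for Herpud1), 2 of 10 genes against 2.11% of all genes. In these libraries 8 pro-B and pre-B markers, all above 0, summed to 103597 and 100019 in Sirt7-/- and 128816 and 117104 in wild-type cells. Jchain was at 60.6 and 69.4 against 110.0 and 110.1. Irf4, the most abundant plasma cell marker there, went the other way, at 6627 and 7851 against 5608 and 5600. The 7 plasma cell markers summed to 13618 and 14988.5 in Sirt7-/- and 14327 and 13503.5 in wild-type cells, which overlapped. The part of the developmental state in the Ern1 and Herpud1 differences was not tested. The other 8 were not called in either fit, with Atf6 at 1423 and 1282 in wild-type and 1373 and 1467 in Sirt7-/- cells and Hspa5 at 9991 and 15145 against 11301 and 14715. Ddit3 stayed between 141 and 208 in the 8 libraries of this table.

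Among the 61 pathway genes tested in sorted cells, none was called by limma between genotypes. At an unadjusted p under 0.05 there were 2 in pro-B and 10 in pre-B cells, where all genes gave 5.94% and 13.6%. DESeq2 called 1 at each stage, P4hb, a disulphide isomerase gene, against 0.725% and 4.12% of all genes, and edgeR none. P4hb was at 8271 and 9014 in wild-type and at 14736 and 20594 in Sirt7-/- pro-B cells (1.01 ± 0.21, adjusted p = 0.47, DESeq2 adjusted p = 0.0018). In pre-B cells it was at 5089.8 and 5841 in wild-type and at 9528 and 13728 in Sirt7-/- (1.07 ± 0.21, adjusted p = 0.15, DESeq2 adjusted p = 0.00028). Without the second Sirt7-/- mouse the differences were 0.77 ± 0.13 (adjusted p = 0.48) and 0.81 ± 0.13 (adjusted p = 0.28), and none of the 61 genes was called. In culture P4hb was at 7104 and 9572 in wild-type and at 15206 and 17549 in Sirt7-/- cells with EV and was called (0.99 ± 0.15, adjusted p = 0.046), 1 of 62 pathway genes against 0.557% of all genes. This call was lost without wild-type replicate 1 (adjusted p = 0.088) or either Sirt7-/- library (0.15 and 0.26), without the filter on low values (0.097), with only the 2 groups compared (0.1975) and where the log2 fold change had to reach 1.5. P4hb (chr11:120560298-120573253) lies 45.1 kb from Sirt7 on the same chromosome (GRCm38), a fact noticed after its values were seen. Whether the deleted allele or its flanking DNA has a part in the P4hb difference was not tested. With the number as a block 2 of the 62 were called higher and 1 lower, against 2.11% of all genes. Wfs1, an ER membrane protein gene, was then also called higher in Sirt7-/- cultures (684 and 329) than in wild-type ones (148.6 and 65.1). Pck2 was called lower.

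**Figure D3:**
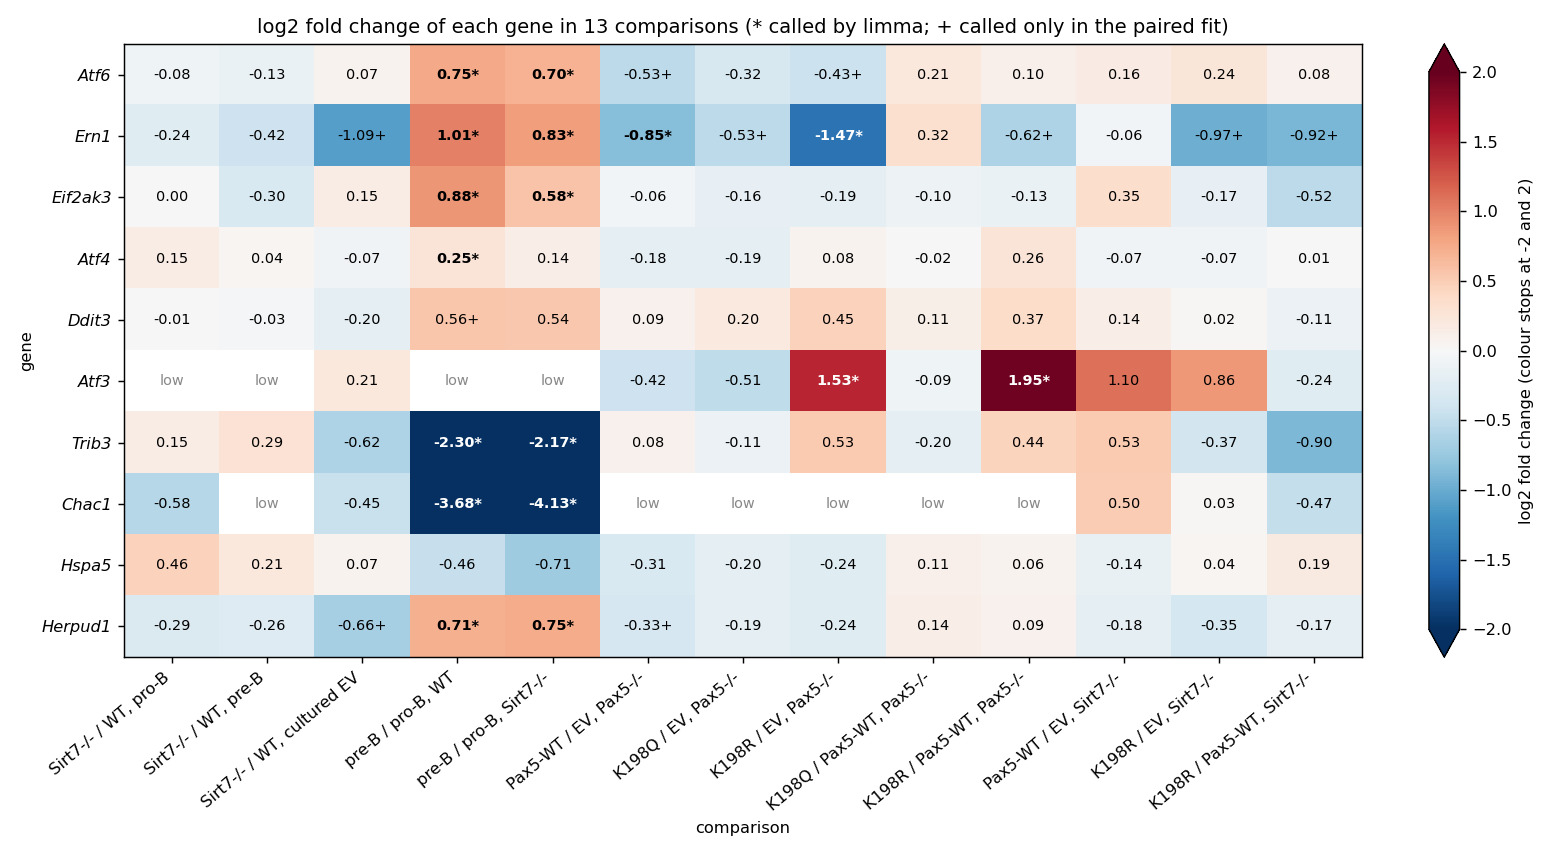
Log2 fold change (colour and number) of each gene (rows) in 13 comparisons (columns). Stars mark calls of limma, plus signs calls made only with the library pairing as a block, and "low" both group means under 15 normalised counts. The stage columns hold 13 calls, the columns of Sirt7-/- with wild-type cells none without the pairing, and Ern1 is negative in each column of K198R.

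Pax5 forms were then compared in Pax5-/- cells, where these comparisons share the EV or the Pax5-WT libraries. Ern1 was lower with each form than with EV, least with K198Q and most with K198R, and passed the test with Pax5-WT and K198R. Atf3 rose with K198R. With Pax5-WT 1 of 10 genes was called against EV (3.25% of all genes), with K198Q none (0.922%) and with K198R 2 (9.92%). For K198Q, 2 genes (Atf6 and Ern1) had an unadjusted p under 0.05 (7.86% of all genes). Same-numbered libraries deviated together in this table too. With that pairing as a block 3 genes were called with Pax5-WT (10.1% of all genes), 1 with K198Q (2.72%) and 3 with K198R (21.2%).

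Ern1 was at 7645 and 5749 normalised counts with EV, 4725 and 4489 with K198Q, 3849 and 3530.0 with Pax5-WT and 2431 and 2352 with K198R. No library of a group overlapped with the next group in this order. The log2 fold change from EV was -0.85 ± 0.13 with Pax5-WT (adjusted p = 0.018), -0.53 ± 0.13 with K198Q (adjusted p = 0.22, 0.029 with the block) and -1.47 ± 0.13 with K198R (adjusted p = 0.00091). Between forms, K198R differed from Pax5-WT by -0.62 ± 0.13, not called (adjusted p = 0.057) except with the block (adjusted p = 0.0073). K198Q differed from Pax5-WT by 0.32 ± 0.13 (adjusted p = 1). The Pax5-WT call was lost without EV replicate 1 (adjusted p = 0.069) or either Pax5-WT library (0.085 and 0.17).

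Atf6 was at 4894 and 4479 with EV, 3546 and 2959.8 with Pax5-WT, 3884 and 3617 with K198Q and 3759 and 3219 with K198R. All 6 libraries with Pax5 lay below both EV libraries. Differences from EV of -0.53 with Pax5-WT (adjusted p = 0.069) and -0.43 with K198R (adjusted p = 0.073) were called with the block (adjusted p = 0.0027 and 0.0033), that of -0.32 with K198Q was not (adjusted p = 0.0505 with the block). Herpud1 was at 3145 and 2663 with EV and at 2454 and 2159 with Pax5-WT, called with the block alone (-0.33, adjusted p = 0.25 and 0.029). Eif2ak3 did not separate by form beyond a log2 difference of -0.19, with all 8 libraries between 1957 and 2316.

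Atf3 was at 88.3 and 111 with EV, 78.2 and 69.7 with Pax5-WT, 89.7 and 53.4 with K198Q and 383 and 216 with K198R. Both K198R libraries lay above the other 6. The rise was 1.53 ± 0.36 against EV (adjusted p = 0.035) and 1.95 ± 0.36 against Pax5-WT (adjusted p = 0.033), where Atf3 was 1 of 10 genes called (2.87% of all genes, and with the block 2 genes, 7.52%). Both calls were lost without the filter on low values (adjusted p = 0.070 and 0.072) and without K198R replicate 1 (0.11 and 0.079). The call against EV was also lost without either EV library (0.18 and 0.10) and that against Pax5-WT without either Pax5-WT library (0.15 and 0.22). Its partners were not called. Ddit3 was at 328 and 161 with K198R against 209 and 135 with EV (0.45), and Atf4 at 4712 and 6221 against 5192 and 5067 (0.08). Trib3 was at 448 and 529 with K198R against 303 and 376 with EV (0.53), and Chac1 lay between 5.85 and 16.5 in all 8 libraries. Hspa5 was at 23951 and 13106 with K198R and at 23612 and 18632 with EV (-0.24). Between K198Q and Pax5-WT none of the 10 was called (0.0225% of all genes), and Ern1 alone had an unadjusted p under 0.05 (3.46%).

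Markers of several cell types varied with Ern1 in this table. Jchain, the plasma cell gene, had the same order of levels from EV to K198R. It was at 67983 and 65946 with EV, 49783 and 43961 with K198Q, 42233 and 36763 with Pax5-WT and 32232 and 26540.4 with K198R. Its fellow plasma cell markers were low or mixed, with Tnfrsf17 at 0 in 1 library and at most 3.93 in the others, and the 7 summed to between 44334 and 84792, Jchain the most abundant in each library. Nkg7, the most abundant of the T and NK cell markers, followed this order as well, at 468 and 569 with EV, 260 and 303 with K198Q, 192 and 219 with Pax5-WT and 109 and 77.7 with K198R. In the reverse order, 8 pro-B and pre-B markers, all above 0 and led by Igll1, summed to 21710 and 26546 with EV, 48511 and 46532 with K198Q, 56708 and 61541 with Pax5-WT and 74897 and 78457 with K198R. The myeloid markers summed to between 408 and 1011, with Itgam the most abundant and S100a9 and Ngp at 0 in each library, and the stroma gene Fn1 lay between 1387 and 3777. The handling genes summed to 5986 and 6085 with K198R, where Atf3 was highest, against 4565 to 5581 in the other 6 libraries. The part of the developmental state, of other cells, of handling or of the amount of Pax5 in these differences was not tested.

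Of the 62 pathway genes tested in Pax5-/- cells, limma called 2 with Pax5-WT (3.25% of all genes), 1 with K198Q (0.922%) and 5 with K198R against EV (9.92%), and 3 between K198R and Pax5-WT (2.87%). Ero1lb rose with Pax5-WT (0.60) and with K198R (0.75), from 1107 and 1065 with EV to 1818 and 1848 with K198R. The cystine transporter gene Slc7a11 rose with Pax5-WT (1.54) and K198Q (1.14), from 180.5 and 186 with EV to 493 and 583 and to 428 and 382. With K198R Slc7a11 was at 179.6 and 151, a called log2 difference of -1.70 from Pax5-WT. The cysteine-producing enzyme gene Cth rose with K198R, to 1494 and 1142 from 689 and 622 with EV (0.995), and differed by 1.74 from Pax5-WT. Cebpb fell by 2.17 with K198R, from 379 and 555 to 119.7 and 85.3, and the degradation genes Syvn1 and Vimp changed by 0.65 and -0.56. Between K198Q and Pax5-WT none of the 62 was called, with 2 at an unadjusted p under 0.05 (3.46% of all genes). With the block the counts were 4 higher and 4 lower for Pax5-WT against EV (10.1% of all genes), 7 and 11 for K198R against EV (21.2%) and 8 and 3 for K198R against Pax5-WT (7.52%).

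In Sirt7-/- pro-B cells the same constructs came on top of the cells' own Pax5. Pax5 transcripts, in which the cells' own and any counted from the vector cannot be told apart, were at 25995 and 37114 with EV, 43024 and 43260 with Pax5-WT and 38690.0 and 45426 with K198R. None of the 10 genes was called with Pax5-WT (0.0366% of all genes) or K198R (4.83%) against EV, or between K198R and Pax5-WT (0.425%). At an unadjusted p under 0.05 there were 0, 1 and 3 genes, against 9.91%, 18.4% and 8.78% of all genes. Ern1 was at 1368 and 926 with EV, 1488 and 784 with Pax5-WT and 591 and 553 with K198R. Both K198R libraries lay below the other 4, with log2 differences of -0.97 ± 0.30 from EV (adjusted p = 0.13) and -0.92 ± 0.30 from Pax5-WT (adjusted p = 0.35). Both were called with the block (adjusted p = 0.013 and 0.048), the 1 gene of 10 in each (11.6% and 2.3% of all genes). Markers varied here too. The 7 plasma cell markers summed to 10706 and 11610 with K198R and to between 12406 and 14989 in the other 6 libraries of the table. Irf4, the most abundant of them, was at 4917 and 4714 with K198R and at 6627 and 7851 with EV. Jchain in Sirt7-/- cells was at 60.6 and 69.4 with EV, 31.8 and 49.9 with Pax5-WT and 15.8 and 21.4 with K198R. T and NK cell markers, led by Thy1, summed to 2162 and 1316 with EV, 1039 and 409 with Pax5-WT and 1076 and 454 with K198R. Their part in the Ern1 values was not tested.

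Eif2ak3 was at 2636 and 2656 with Pax5-WT and at 1629.9 and 2092 with K198R, and Trib3 at 158 and 227 against 98.3 and 105. Neither was called, with log2 differences of -0.52 (adjusted p = 0.42) and -0.90 (adjusted p = 0.51). Atf3 was at 44.1 and 84.2 with EV, 79.3 and 218 with Pax5-WT and 60.8 and 204 with K198R. The 2 libraries with the most Atf3 were both replicate 2 and had the most Fn1, 17761 and 13300.2 against 4124 to 6657 in the other 6. They also had the highest sums of the handling genes, 6658 and 6629 against 4359 to 5527. The part of stroma cells or of handling in the Atf3 values was not tested. All but 1 or 2 of the 8 stroma markers were above 0 in each library of this table, with sums of 23709 and 17982 in these 2 libraries and 6231 to 9604 in the others. Chac1 lay between 82.7 and 251 in the 8 libraries of this table. Herpud1 was at 2062 and 2915 with Pax5-WT and 1817 and 2601 with K198R, below or among the EV libraries (2108 and 3644). Of the 62 pathway genes none was called in these 3 comparisons, with 3, 8 and 4 at an unadjusted p under 0.05 (9.91%, 18.4% and 8.78% of all genes). With the block 3 rose with K198R against EV (11.6% of all genes) and 1, Wfs1, against Pax5-WT (2.3%).

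**Figure D4:**
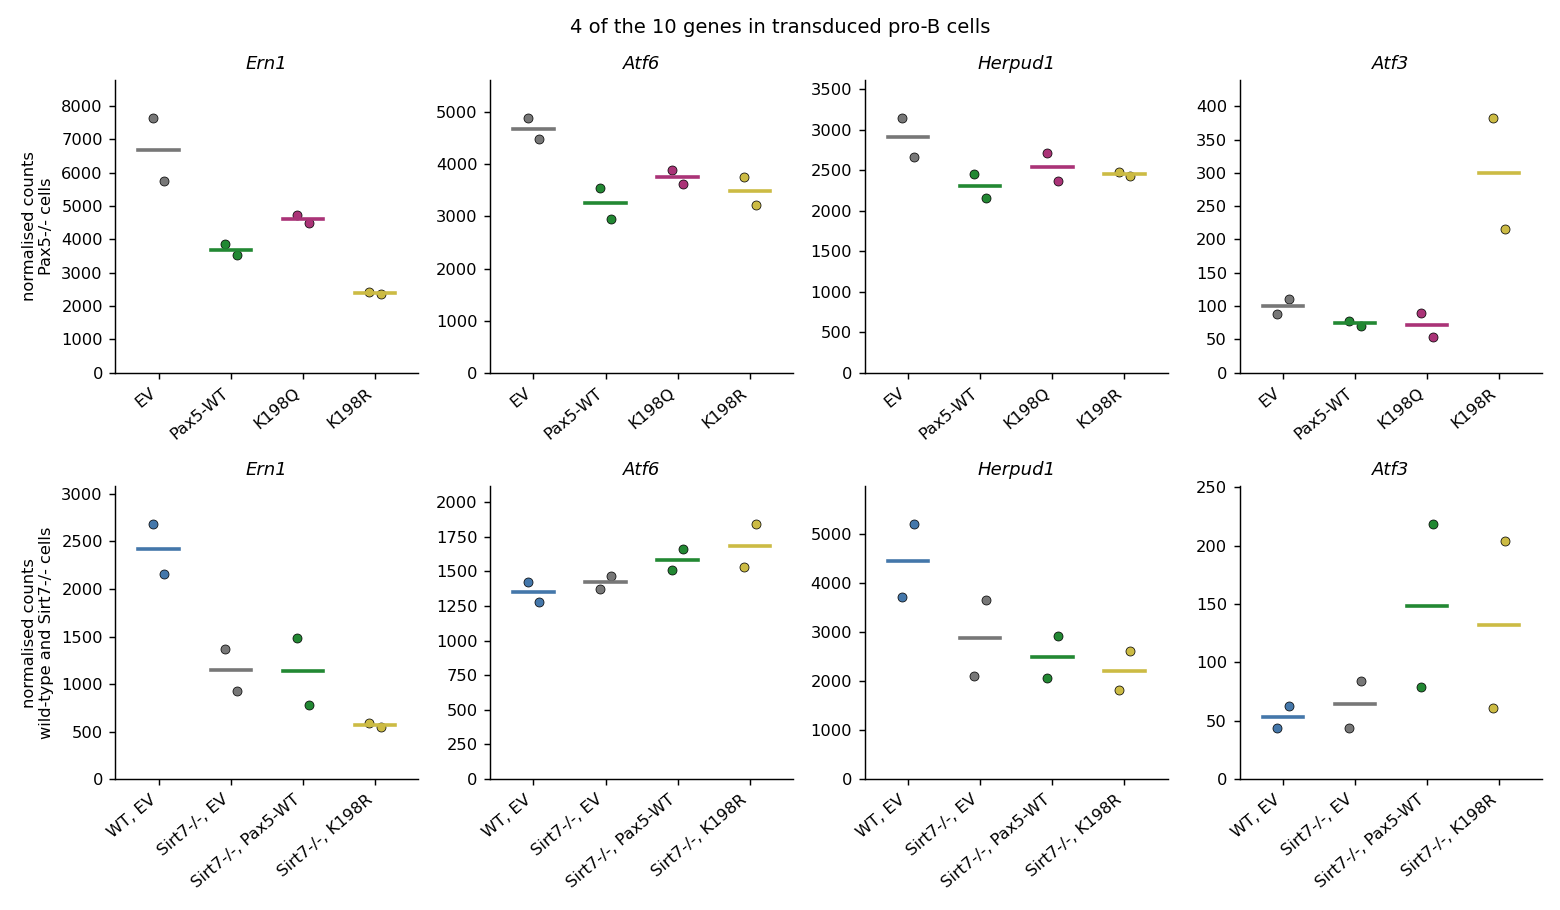
Normalised counts (y axis, from 0) of Ern1, Atf6, Herpud1 and Atf3 in Pax5-/- cells and in cultured wild-type and Sirt7-/- cells, by construct. Dots are libraries and lines group means (n = 2). Ern1 is lowest with K198R in both cell types, 2352 and 2431 in Pax5-/- and 553 and 591 in Sirt7-/- cells, and Atf3 is highest with K198R in Pax5-/- cells (383 and 216).

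Pax5 peaks at these genes were counted over the gene body and 5 kb before its start, in mm10 coordinates. Peaks had been called for each library over its input with MACS2. With Pax5-WT 8 of the 10 genes had a peak in each list, against 30.1% and 33.5% of 21911 coding genes. With K198Q it was 3 of 10 (13.5% and 13.95%) and with K198R 7 of 10 (34.3% and 36.5%). For Pax5-WT and K198Q, Ddit3 counts only through an interval that also overlaps a neighbouring gene, Mbd6. The lists differ in size, with 10639 and 11824 peaks for Pax5-WT, 3747 and 3953 for K198Q and 12154 and 13990 for K198R. Long genes such as Atf6 (163 kb) and Ern1 (93.2 kb) have more room for a peak. The shares are over all coding genes, expressed in these cells or not, whereas all 10 genes passed the filter on low values.

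Ddit3, Atf4 and Herpud1, a partner of ATF4, ATF4 itself and the degradation gene, had a peak in all 6 lists. The strongest lay before Ddit3 (chr10:127290774-127296288, forward strand), with summits at positions -1932 to -1844 relative to its start. Its fold enrichment over input was 12.8 and 11.97 with Pax5-WT, 6.76 and 5.18 with K198Q and 5.72 and 10.8 with K198R. This interval overlaps the first exon of the neighbouring gene Mbd6 on the opposite strand, so that it cannot be ascribed to Ddit3 by position. K198R replicate 1 alone held a second peak before Ddit3, with its summit at -177 and a fold enrichment of 4.81. At Atf4 (chr15:80255184-80257541, forward strand) summits lay in an exon, 809 to 840 bases after the start, in 5 lists. In K198R replicate 2 they lay at -254 and 346, and K198R replicate 1 held a further one at -131. At Herpud1 (chr8:94386438-94395377, forward strand) the summits nearest the start lay 25 to 124 bases after it, with fold enrichments from 3.52 to 6.93.

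Atf6, Eif2ak3 and Atf3 had peaks with Pax5-WT and K198R in each replicate and none in the K198Q lists. At Atf6 (chr1:170704674-170867771, reverse strand) summits lay between -2 and 18 from the start in 3 of these lists. The only Atf6 summit of K198R replicate 2 lay at the far end of the gene, 161556 bases from the start. K198R replicate 1 held a further one there, at 161575. At Eif2ak3 (chr6:70844515-70905245, forward strand) summits lay 77 to 503 bases after the start, with 1 more in K198R replicate 2 in an intron, at 3109 bases. Atf3 (chr1:191170296-191218039, reverse strand) had 16 peaks over 4 lists, all in introns by the longest annotated span. Those with summits at 34133 to 34511 bases from that start overlap or flank the RefSeq start whose upstream sequence is given above. Ern1 (chr11:106394650-106487852, reverse strand), the sensor that fell with Pax5-WT and K198R, had peaks in 3 lists. They lay in introns (57252 to 59528 bases from the start), in an exon near its far end (91829) and, for K198R replicate 1 alone, 60 bases after the start. Only the intron peak at 57252 and 57254 bases was shared by lists of different forms. Chac1 (chr2:119351229-119354381, forward strand) had a peak at its start in 3 lists. Trib3 (chr2:152337422-152344032, reverse strand) and Hspa5 (chr2:34771970-34777547, forward strand) had none in any list.

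**Figure D5:**
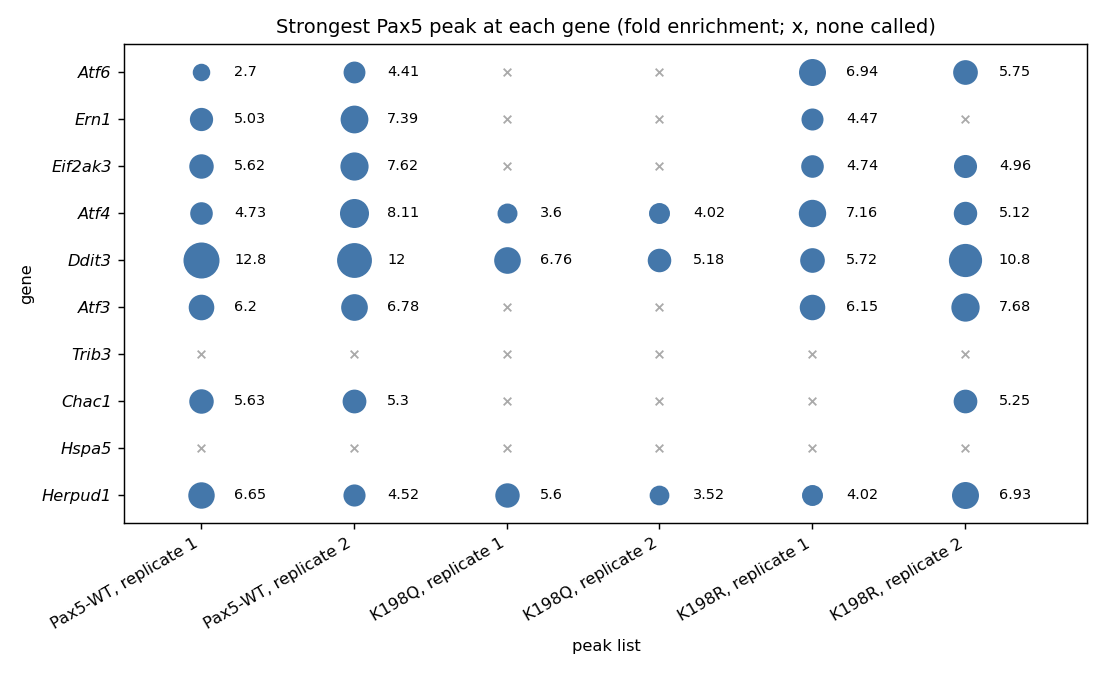
Fold enrichment over input of the strongest Pax5 peak of each gene (rows) in each of the 6 peak lists (columns). The area of a circle grows with the value printed beside it, and crosses stand for no called peak. The strongest peak (12.8) lies before Ddit3, in an interval that also overlaps the neighbouring gene Mbd6. Trib3 and Hspa5 have no peak, and the K198Q lists have peaks counted at Atf4, Ddit3 and Herpud1 alone.

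Genes that varied most like Ddit3 and Hspa5 were sought over all 24 libraries, with each of 10505 genes centred within its table. This is a description over libraries that share tables, cultures and mice. Closest to Hspa5 were St6galnac4 (Pearson r = 0.89), Pdia4 (0.85), Hyou1 (0.83), Calr (0.81) and Creld2 (0.80), of which the last 4 encode ER chaperones or proteins of ER folding. Closest to Ddit3 were Fam193a (0.82), Zfp638 (0.81), Spopl (0.79), Usp16 (0.78) and Akap9 (0.77), none of which was on the pathway list.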

How the data were processed

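RNA-seq values are signal values, counts per gene that the authors had quantified with Salmon (mm10, GC bias correction), imported with Tximeta and scaled by the median of ratios of DESeq2 before they were deposited. For sorted cells 100% of values were whole reads times 1 factor per library (50004827 to 55536608 reads). The others sum to 27814214 to 30520853 normalised counts, with no reads recovered. ChIP-seq peaks were called by the authors with MACS2 at a q-value under 0.05, after Bowtie2 alignment and removal of duplicates. The deposited fold enrichment is a ratio over input, given with −log10 of the q-value. Peak names inside K198R replicate 2 carry another replicate number.

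Genes with at least 10 normalised counts in at least 2 of 8 libraries of a table were tested (17649, 13345 and 13651) on log2(normalised count + 1) with limma 3.58.1 in R 4.3.3, the 4 groups of a table in 1 fit, with Benjamini-Hochberg adjustment and a call at an adjusted p under 0.05. Fold changes are on that scale and understate changes of low genes. edgeR 4.0.16 and DESeq2 1.42.0 were run on the recovered reads. With 2 against 2 libraries an exact test cannot go below p = 0.33, and for cultures p-values measure the spread between replicate cultures. The members and lists were chosen with earlier results of these data known. The genes named are the 10 members, up to 3 called pathway genes with the largest changes in each direction per comparison, the 5 genes most like Ddit3 and Hspa5, leading and defining markers, and Sirt7 and Pax5. A surface marker and its values are not reported here.

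Pro-B and pre-B libraries of 1 mouse pair by the labels. In the other tables deviations of same-numbered libraries correlated between all groups (r from 0.264 to 0.383 in Pax5-/- cells and from 0.156 to 0.428 in cultured pro-B cells), and the methods state replicates from different days, so the number was used as a block there. Positions are from GENCODE M21 (GRCm38).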

Additional observations from a re-analysis of the deposited data

How the results depend on the processing

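Counts of called genes among the 10 stayed within 1.5 times of those reported under a pseudocount of 5 in all 14 comparisons, under edgeR in the sorted cells, and under most other settings, with these exceptions. DESeq2 called 1 between genotypes in pre-B cells. When the log2 fold change also had to reach 1.5 in size, 2 were called between stages in each genotype, 0 for Pax5-WT and 1 for K198R against EV in Pax5-/- cells. With the pairing as a replicate block 3 were called for Pax5-WT, 1 for K198Q and 2 for K198R against Pax5-WT in Pax5-/- cells, 2 between genotypes in culture, and 1 for K198R against EV and 1 against Pax5-WT in Sirt7-/- cells. Without the filter on low values 1 was called for K198R against EV and 0 against Pax5-WT in Pax5-/- cells. With only the 2 groups compared these counts were 1 and 0, and 1 for K198R against EV in Sirt7-/- cells. Scaling to the 75th percentile gave 2 for K198R against Pax5-WT in Pax5-/- cells. The cause of these changes was not tested.

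Leaving out each replicate in turn gave 4 to 6 calls between stages in wild-type cells (4 without pre-B replicate 2), 3 to 6 in Sirt7-/- cells (3 without pro-B replicate 2), 0 to 1 for Pax5-WT and 1 to 2 for K198R against EV, 0 to 1 for K198R against Pax5-WT, and 0 to 0 elsewhere. A lone library is then assumed to vary like the other groups. Leaving out both libraries of the second Sirt7-/- mouse, chosen after seeing the data, gave 0 calls between genotypes at either stage, 4 between stages and 0 for the interaction. Of the results for single genes with an unadjusted p under 0.05, 34 in number, 333 values under other settings kept their side of the threshold, 46 lost a call, 11 gained one and 0 changed sign. Wild-type and Sirt7-/- mice share only replicate numbers (r = 0.0554 in pro-B and 0.0408 in pre-B cells), and the replicate block called 0 of the 10 genes at each stage. Precision is limited by 2 libraries per group and, for Atf3 and Chac1, by low counts.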

Other observations

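Ppp1r15a, the eIF2α phosphatase subunit, was at 327 and 337 normalised counts with EV and 335 and 437 with K198R in Pax5-/- cells, and lay between 272.7 and 581 in the cultured pro-B cells. In the sorted cells it was at 888 and 399 in wild-type pro-B and 1025 and 1071 in wild-type pre-B libraries, against 5081 and 4853 in the second Sirt7-/- mouse. Ddit3 in these 2 libraries was also the highest of its stage, by less, at 740 against 469 to 691 in pro-B and 924 against 795 to 923 in pre-B cells. Xbp1 in Pax5-/- cells was at 8239 and 8161 with EV, 7979.5 and 6809.9 with Pax5-WT, 8004 and 6033 with K198Q and 6714 and 4499 with K198R, and was not called against EV by limma (-0.58 with K198R, adjusted p = 0.13) except for K198R with the pairing as a block (adjusted p = 0.012, 21.2% of all genes called). Wfs1 in Sirt7-/- cultures was at 684 and 329 with EV, 695 and 358 with Pax5-WT and 1879.6 and 995 with K198R.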
